A study of Mus musculus with 17 samples.

Results

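Isolated distal H3K27ac peaks of control mouse epidermis are stretches of acetylated chromatin that lay away from the ends of genes and away from each other. They were chosen by position, from the control H3K27ac peak list itself: a peak was distal when its nearest edge lay more than 1 kb from both ends of every protein-coding gene, and isolated when no other distal peak of the list lay within 12500 bp, edge to edge. Of the 2140 peaks of that list, 606 met the rule, which was 28.3% of the 2139 peaks on placed chromosomes and 182220 of 685569 bp. The other placed peaks were 760 distal peaks with a distal neighbour within 12500 bp (35.5%), called clustered here, and 773 peaks within 1 kb of a gene end (36.1%), called gene-end peaks. Since the rule used the positions of these peaks, their distances to genes and to each other are given as descriptions.

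The study deleted Utx (Kdm6a), an X-linked gene for a histone H3K27 demethylase, in tissues that express keratin 14, with Krt14-Cre. Crosslinked single-cell suspensions of epidermis from female mice were used for ChIP-seq with an antibody against H3K27ac and an antibody against UTX. Control mice were Cre-; Utx fl/fl, so they carried the floxed alleles without the recombinase, and Utx-deleted mice were Cre+; Utx fl/fl; the labels give no age or strain. Per the labels there were 2 control H3K27ac libraries and 3 libraries in each other group, input included, 17 in all. The labels' protocol gives 3 samples for all groups, and which libraries the merged control H3K27ac list holds is not known. The authors called 1 peak list per antibody and genotype on merged libraries: 2140 control H3K27ac, 48 Utx-deleted H3K27ac, 547 control UTX and 213 Utx-deleted UTX peaks. The lists give a chromosome, a start and an end for each peak, with no height, so the values below are positions, widths and counts. A merged list has no replicate error, no difference was tested, and the 95% intervals given (Wilson for shares, order statistics for medians) cover counting error only. Read depth is unknown from these lists.

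Acetylation of lysine 27 of histone H3 is laid down by the acetyltransferases p300 and CBP on nucleosomes beside open regulatory DNA, at promoters and at enhancers. Enhancers bind transcription factors and raise transcription from promoters that can lie far away, so the nearest gene is only a label for a distal peak. Dense groups of acetylated elements often surround genes that define a cell type, while single elements are scattered more widely. In epidermis, AP-1, p63, KLF4, GRHL3 and GATA3 are known to act through such elements as keratinocytes leave the basal layer and build the barrier.

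A distal peak by this rule can still lie at a start of transcription, because a gene can start at several places and because non-coding genes were not used to define distal. Promoter windows of RefSeq (250 bases before to 50 bases after an annotated start, GRCm38.p6) were therefore compared with the peaks. The table covers the chromosomes of 591 isolated distal peaks, and 5 of these held an annotated start site inside the peak. These are the start sites of Kat5, a histone acetyltransferase of the TIP60 complex, Vps25, a subunit of the ESCRT-II sorting complex, Rnh1, the ribonuclease inhibitor, Mrpl48, a protein of the mitochondrial ribosome, and the lncRNA gene Gm10433. A further 18 peaks reached into a window without covering the start. Of these, Rfx5, a transcription factor of MHC class II genes, had the widest peak, and Nfkb2, an NF-kB subunit, was chosen after its values were seen. The 7 windows are shown because they carry bases of the peaks themselves, which are in capitals. Bases outside the peak are in lower case, and every window runs 5′ to 3′ on the strand of its gene. The windows of Kat5 (chr19:5610045-5610344, minus strand), Vps25 (chr11:101253457-101253756, plus strand) and Rnh1 (chr7:141168637-141168936, minus strand) lie inside the genes they are named after.
Kat5: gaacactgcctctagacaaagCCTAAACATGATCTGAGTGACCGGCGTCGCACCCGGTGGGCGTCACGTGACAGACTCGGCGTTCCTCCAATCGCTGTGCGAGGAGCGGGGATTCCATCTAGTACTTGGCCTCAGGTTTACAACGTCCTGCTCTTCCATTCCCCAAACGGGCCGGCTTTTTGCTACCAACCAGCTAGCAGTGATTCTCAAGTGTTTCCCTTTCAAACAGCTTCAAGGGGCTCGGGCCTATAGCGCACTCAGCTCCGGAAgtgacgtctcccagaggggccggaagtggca
Vps25: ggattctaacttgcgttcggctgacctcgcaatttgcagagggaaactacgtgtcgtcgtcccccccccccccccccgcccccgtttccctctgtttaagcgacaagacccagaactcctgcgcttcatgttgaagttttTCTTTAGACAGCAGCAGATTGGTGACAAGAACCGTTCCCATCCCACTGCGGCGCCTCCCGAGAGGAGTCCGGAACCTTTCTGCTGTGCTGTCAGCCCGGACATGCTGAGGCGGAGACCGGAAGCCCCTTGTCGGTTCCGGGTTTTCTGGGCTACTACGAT
Rnh1: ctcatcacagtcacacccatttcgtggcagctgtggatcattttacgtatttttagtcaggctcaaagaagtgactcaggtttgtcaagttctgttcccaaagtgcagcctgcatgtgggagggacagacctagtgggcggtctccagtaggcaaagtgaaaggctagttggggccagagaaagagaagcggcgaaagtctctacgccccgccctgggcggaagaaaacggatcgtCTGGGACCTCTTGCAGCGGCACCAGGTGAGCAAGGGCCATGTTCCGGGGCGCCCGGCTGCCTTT

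The Mrpl48 window (chr7:100583081-100583380, minus strand) also lies inside its gene, and that of Gm10433 (chr12:100187718-100188017, plus strand) lies between protein-coding genes. In the Rfx5 window (chr3:94953858-94954157, plus strand) the peak covers the bases farthest before the start, and so it does in the Nfkb2 window (chr19:46305445-46305744, plus strand).
Mrpl48: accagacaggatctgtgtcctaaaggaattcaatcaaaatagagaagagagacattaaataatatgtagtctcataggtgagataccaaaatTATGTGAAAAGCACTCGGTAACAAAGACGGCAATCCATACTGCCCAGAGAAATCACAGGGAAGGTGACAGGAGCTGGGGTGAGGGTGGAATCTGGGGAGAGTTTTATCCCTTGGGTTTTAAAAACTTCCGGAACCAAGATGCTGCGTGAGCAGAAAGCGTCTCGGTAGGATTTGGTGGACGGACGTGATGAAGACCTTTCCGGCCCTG
Gm10433: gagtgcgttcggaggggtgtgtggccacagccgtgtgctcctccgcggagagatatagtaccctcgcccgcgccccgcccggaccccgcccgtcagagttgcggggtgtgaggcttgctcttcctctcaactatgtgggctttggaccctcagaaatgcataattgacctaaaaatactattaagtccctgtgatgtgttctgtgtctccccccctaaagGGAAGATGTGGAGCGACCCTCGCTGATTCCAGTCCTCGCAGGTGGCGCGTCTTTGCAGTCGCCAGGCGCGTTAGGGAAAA
Rfx5: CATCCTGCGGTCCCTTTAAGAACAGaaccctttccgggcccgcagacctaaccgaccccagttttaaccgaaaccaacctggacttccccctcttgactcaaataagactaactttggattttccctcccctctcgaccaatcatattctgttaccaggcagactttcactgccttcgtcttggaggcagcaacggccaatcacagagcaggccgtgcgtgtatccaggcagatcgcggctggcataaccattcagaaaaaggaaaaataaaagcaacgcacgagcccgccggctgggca
Nfkb2: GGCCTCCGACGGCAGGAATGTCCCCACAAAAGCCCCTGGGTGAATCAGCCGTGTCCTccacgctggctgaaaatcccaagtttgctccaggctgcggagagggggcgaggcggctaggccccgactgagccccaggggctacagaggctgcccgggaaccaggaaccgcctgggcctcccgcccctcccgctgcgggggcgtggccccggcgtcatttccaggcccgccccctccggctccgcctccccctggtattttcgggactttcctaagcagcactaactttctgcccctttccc

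The peak covered 248 of the 300 bases at Kat5, 208 at Mrpl48, 160 at Vps25, 80 at Gm10433, 64 at Rnh1, 57 at Nfkb2 and 25 at Rfx5. Across the 23 windows that a peak reached, 17 belonged to protein-coding genes, each the gene that the peak lay in or nearest to, and 6 to lncRNA genes. Their median GC content was 56.7% (range 45.3 to 76.3), and that of all 32851 windows was 52.7%. Their median number of CpG dinucleotides was 17, against 7 in all windows. Among the 23, the median GC content was 56.7% for protein-coding and 49.2% for lncRNA genes. The set of all windows was not matched to the 23 by gene type. Motifs were searched as letters on both strands, and none of those searched is part of another. The whole window was searched, so a match can lie outside the peak. The ETS motif CCGGAA was in 10 of the 23 windows (43.5%, interval 25.6 to 63.2) and in 14.9% of all windows, and the TATA box TATAAA in 0 of 23 (interval up to 14.3%) and in 13.6% of all. The AP-1 motif TGANTCA was in 3 windows (13.0%, interval 4.54 to 32.1), those of Rfx5, Rnh1 and Nfkb2, and in 7.81% of all windows. At Rfx5 and Rnh1 the match lay outside the peak, and at Nfkb2 inside it. The cyclic AMP response element TGACGTCA was in 1 window (4.35% against 1.79%), the GC box GGGCGG in 9 (39.1% against 35.7%), the CCAAT box in 8 (34.8% against 37.4%) and the E-box CACGTG in 3 (13.0% against 7.15%).

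The rule removed every peak within 1 kb of a protein-coding gene end, and with it most peaks on or close to start sites, so positions around starts are given as a description. Within 1 kb of an annotated start site of any gene lay 113 of the 591 peaks outside chromosome 18 (19.1%, interval 16.2 to 22.5) and the nearest start was that of a protein-coding gene for 79 of them and of a lncRNA gene for 34. Inside genes the share was 25.2% (95 of 377, interval 21.1 to 29.8) and between genes 8.41% (18 of 214, interval 5.39 to 12.9). The same share was 14.9% of the clustered peaks (110 of 738) and 81.5% of the gene-end peaks (615 of 755). Of the 113, 79 lay after the start (69.9%, interval 60.9 to 77.6) and 34 before it. Of the peak centres, 8 lay within 200 bp of the start, against 92 between 200 and 1000 bp away, with a median distance of 541 bp. Per kb, the share of peaks with a centre within 200 bp on either side was 3.38%, between 10.2% from 500 to 200 bp before the start and 11.8% from 200 to 500 bp after it. The bin across the start was also lower than its neighbours in the clustered peaks (3.73% between 8.13% and 9.03%) and in the gene-end peaks (34.1% between 53% and 68%). The part of the rule in these profiles was not tested.

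**Figure D1:**
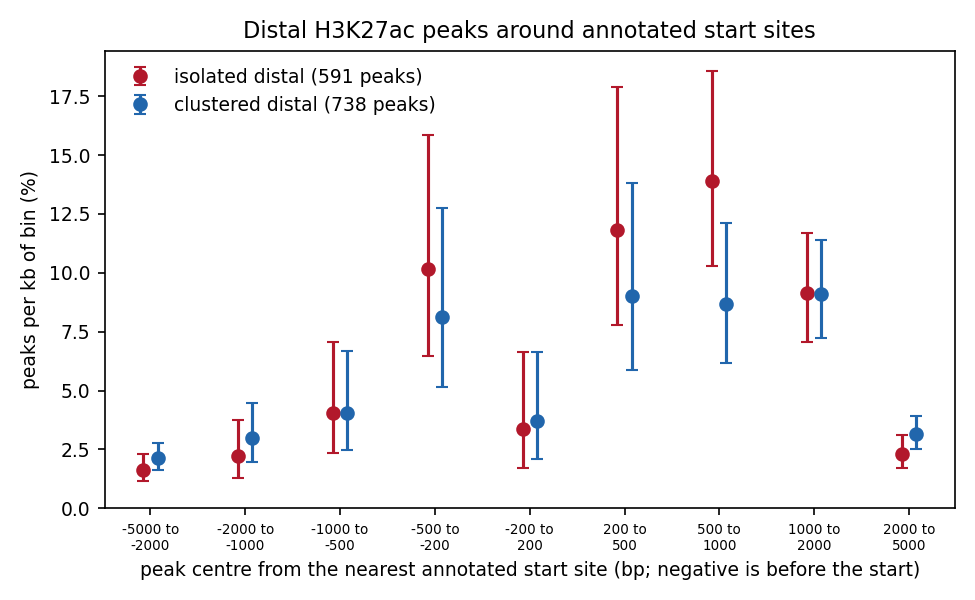
Share of distal H3K27ac peaks per kb of bin (%, y axis) by the distance of the peak centre from the nearest annotated start site of a gene of any type (bp, x axis, bins of unequal width, negative before the start), for isolated (591) and clustered (738) peaks outside chromosome 18. Points are shares and bars 95% Wilson intervals; for isolated peaks the bin across the start site (3.38%) lies below the bins on either side of it (10.2% and 11.8%), and the highest bin is 500 to 1000 bp after the start (13.9%).

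The labelled tissue was checked against marker genes. Of 16 keratinocyte markers, 6 were assigned an isolated distal peak: Krt10, Col17a1, Cdh1, Grhl3, Klf4 and Gata3, beside 2.54% of all protein-coding genes. Krt10 and Cdh1 held one inside the gene, and those of Col17a1 and Grhl3 lay 8232 and 24358 bp outside. The Klf4 peak lay 590332 bp outside and the Gata3 peaks 106913 to 391494 bp outside, where the nearest gene is only a label. Of 100 markers of immune cells, fibroblasts, melanocytes, Merkel cells and endothelial, mural or muscle cells, 2 were assigned one, Pecam1 and Vwf, which is near the share over all genes. The keratinocyte markers Krt5, Krt14, Krt15, Krt1, Trp63, Itga6 and Itgb4 were assigned no control peak of any class. In whole epidermis, a mark on few cells and a weak mark on many cannot be told apart.

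The widths of the isolated peaks ran from 199 to 1292 bp, with a median of 263.5 bp (interval 254 to 270) and quartiles of 219 and 341.75 bp. Clustered peaks had a median width of 285.5 bp (interval 276 to 295) and gene-end peaks one of 272 bp (interval 266 to 283). Only 37 isolated peaks were 500 bp or wider (6.11%, interval 4.46 to 8.30), against 91 clustered (12.0%, interval 9.85 to 14.5) and 67 gene-end peaks (8.67%). At the smallest width in the list, 199 bp, lay 58 isolated peaks (9.57%), 41 clustered (5.39%) and 76 gene-end peaks (9.83%). Of the 37 widest isolated peaks, 12 lay within 1 kb of an annotated start site (32.4%, interval 19.6 to 48.5), and of the narrower ones 101 of 554 (18.2%, interval 15.2 to 21.7).

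**Figure D2:**
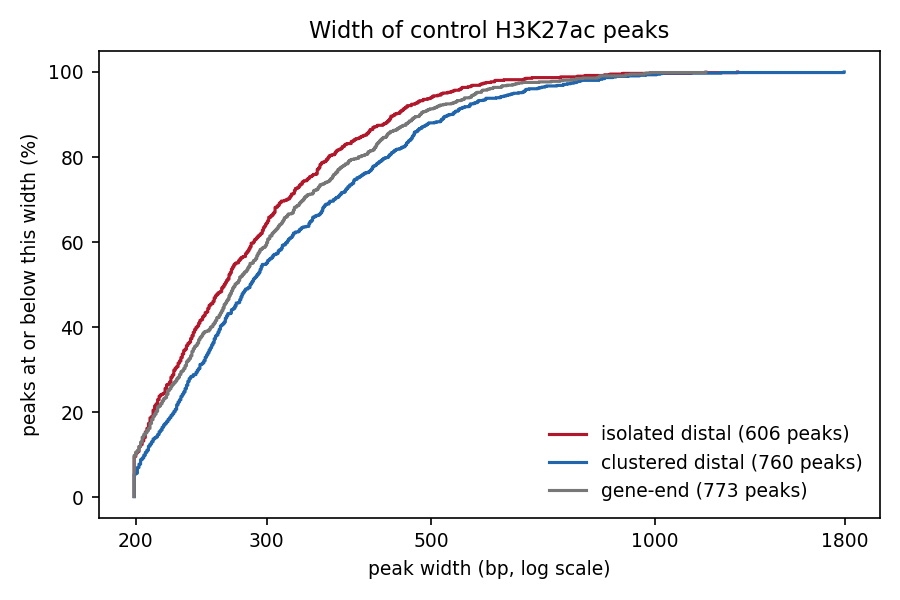
Cumulative share of control H3K27ac peaks (%, y axis) at or below a given width (bp, log scale, x axis) for isolated distal (606), clustered distal (760) and gene-end (773) peaks. The isolated peaks lie to the left of both other classes over most of the range, with medians of 263.5, 285.5 and 272 bp, and the step at 199 bp is the smallest width in the list.

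Inside protein-coding genes lay 389 of the 606 isolated peaks (64.2%, interval 60.3 to 67.9), and 217 lay between genes (35.8%, interval 32.1 to 39.7). Of the clustered peaks, 57.1% lay inside genes (interval 53.6 to 60.6). Median widths were 261 bp inside genes and 267 bp between them. The host genes were long: their median length was 53992 bp (interval 44009 to 65284), against 17169 bp over all 21887 protein-coding genes and 49118.5 bp for hosts of clustered peaks. Long genes offer more sequence to a peak, and the part of gene length in the counts was not tested. Only 4 peaks lay in more than 1 gene.

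Within host genes the peaks lay toward the 5′ side. For the 313 inside peaks whose host gene could be given a strand, 226 lay before the midpoint of the gene (72.2%, interval 67.0 to 76.9), with a median position at 31.1% of the gene's length from its 5′ end. The first 10% of the gene held 64 peaks (20.4%) and the last 10% held 12 (3.83%). The rule left out peaks within 1 kb of either gene end, which cuts both of these parts, most in short genes. The part of the rule in these positions was not tested. Of the clustered peaks, 261 of 340 lay before the midpoint (76.8%, interval 72.0 to 80.9). The median distance from the 5′ end was 12988 bp (interval 8977 to 16759). Among the peaks deepest inside a host gene, a Rora peak lay 303036 bp from the nearest end of its gene, an Adgrv1 peak 260998 bp (chosen after its value was seen) and a Rad51b peak 255037 bp.

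**Figure D3:**
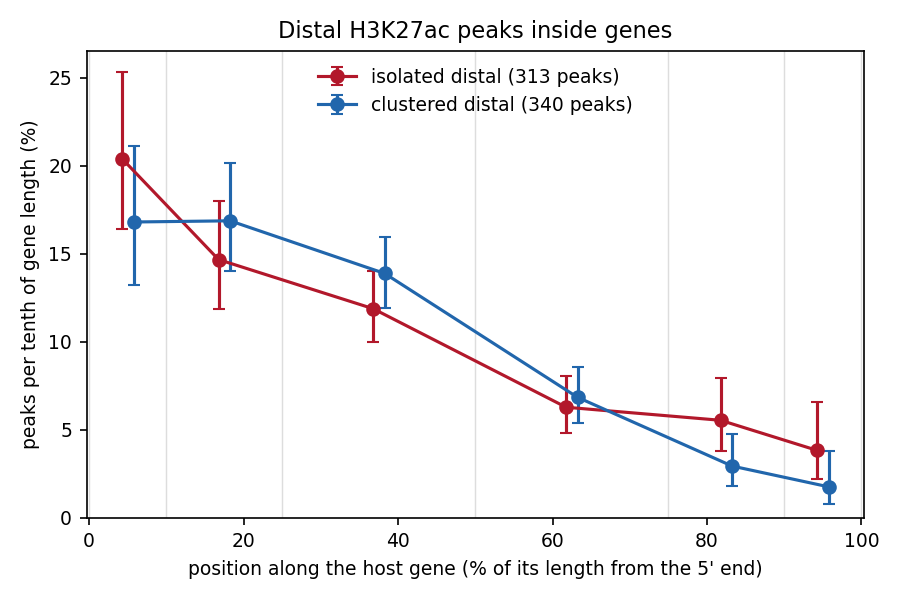
Share of distal H3K27ac peaks per 10% of gene length (%, y axis) against position along the host gene (% of its length from the 5′ end, x axis) for isolated (313) and clustered (340) peaks inside genes with a known strand. Points are shares in 6 bins whose edges are the grey lines, and bars are 95% Wilson intervals. Isolated peaks fall from 20.4% in the first 10% to 3.83% in the last 10%, where the rule left out peaks within 1 kb of either gene end.

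Between genes, the median distance of an isolated peak to the nearest protein-coding gene was 16973 bp (interval 13003 to 23539), with quartiles of 5939 and 44042 bp. Within 10 kb of a gene lay 78 of the 217 (35.9%) and more than 100 kb away 26 (12.0%). Clustered peaks between genes had a median of 14190.5 bp (interval 11311 to 17202). A lncRNA gene held 62 of the 217 (28.6%, interval 23.0 to 34.9), and 32 of the 389 peaks inside protein-coding genes (8.23%). The shares of clustered peaks were close to these, at 29.1% between genes (95 of 326) and 8.53% inside genes (37 of 434).

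The distance to the next distal peak, which the rule set at more than 12500 bp, had a median of 251 kb, and 139 peaks had none within 1 Mb (22.9%). The most remote, inside Mbnl2, a splicing regulator, had its next distal peak 16.8 Mb away and was chosen after its value was seen. Gene-end peaks were not used in the isolation rule, and they too were far: the nearest lay at a median of 390 kb (interval 280 to 486). For 68 of 606 it lay within 12500 bp (11.2%, interval 8.95 to 14.0), so 538 peaks had no peak of any class that close. For clustered peaks the median was 117 kb (interval 91.2 to 149) and 181 of 760 had a gene-end peak within 12500 bp (23.8%).

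Peaks on either side of the thresholds are given for their widths. Just far enough from a gene end were those of Tuba4a (1002 bp away, 304 bp wide), Etf1 (1015 bp, 199 bp wide) and Nemp1 (1025 bp, 215 bp wide). Just too close were those of Gm52006 (1000 bp, 275 bp wide), Usp24 (999 bp, 465 bp wide) and Arhgef12 (997 bp, 285 bp wide). Just isolated were the peaks of Clic1 and Mpig6b, 12775 bp from each other, and that of Map7d1 (13106 bp). Just clustered were those of Ndel1 and Rnf222, 12459 bp from each other, and that of Sar1b (12169 bp).

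Taking for each peak the gene it lay in or, between genes, the nearest gene, the 606 peaks were assigned to 555 genes, which is 2.54% of the 21887 protein-coding genes. Of these genes, 508 had 1 isolated peak, 39 had 2 and 8 had 3. A gene was counted as having a gene-end peak where a control peak lay within 1 kb of one of its own ends. This held for 92 of the 555 (16.6%, interval 13.7 to 19.9), beside 3.74% of all protein-coding genes. The share was 7.36% when isolated peaks had to lie away from gene-end peaks too. A clustered distal peak was assigned to 38 of the 555 (6.85%), beside 1.19% of all protein-coding genes. Neither was found for 441 (79.5%, interval 75.9 to 82.6), and such genes are said below to have no other peak. A peak inside a gene but beside an end of another gene only was not counted for the first. Of the 260 genes of clustered peaks, 86 had a gene-end peak (33.1%, interval 27.6 to 39.0). Among the 68 isolated peaks with a gene-end peak within 12500 bp, 59 were assigned to a gene that had one.

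The 8 genes with 3 isolated peaks fell into different layouts. Sgms1, which encodes a sphingomyelin synthase of the Golgi, held peaks of 626, 390 and 206 bp inside its 267159 bp, beside 8 clustered peaks, and the widest lay 540 bp from an annotated internal start of the gene. Rad51b, which acts in homologous recombination, held peaks of 475, 327 and 210 bp at 46.3%, 63.9% and 34.9% of its 550979 bp. Tiam1, an exchange factor that activates Rac, held peaks of 374, 332 and 209 bp. Afap1l2, an adaptor linked to actin and Src signalling, held peaks of 278, 262 and 256 bp, the first 197 bp from the start of the lncRNA gene Gm38597. Rad51b, Tiam1 and Afap1l2 had no clustered and no gene-end peak.

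Gata3, a zinc finger transcription factor that acts in epidermal differentiation, had all 3 isolated peaks in the gene-poor stretch beside it. They lay 106913, 187594 and 391494 bp outside the gene and were 205, 327 and 333 bp wide, and 16 clustered peaks were assigned to Gata3 as well. Frmd6, a FERM-domain protein at cell junctions, had peaks 4967, 26038 and 152717 bp outside. Ywhaz, which encodes the zeta form of the 14-3-3 adaptor proteins, had a peak inside and others 40059 and 81388 bp outside.

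Chd2, a chromatin remodeller, combined all classes, with 3 isolated, 3 clustered and at least 1 gene-end peak. Its widest isolated peak (chr7:73555892-73557010, 1119 bp) was the widest between genes and the next widest after Skint1 overall. It lay 14146 bp outside Chd2, within the lncRNA gene Chaserr and 1385 bp from an annotated Chaserr start. Chaserr is known in mouse to restrain expression of Chd2. The others were 515 bp wide inside Chd2 and 225 bp wide 47257 bp outside it.

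The widest isolated peak lay inside Skint1 (chr4:112008513-112009804, 1292 bp), a keratinocyte gene of the butyrophilin-like family needed for selection of the epidermal gamma-delta T cells. It lay 2244 bp from the gene's start and 402 bp from a gene-end peak. Skint genes are a family of close copies, so reads could be split between them, and how multiply mapped reads were treated is not given in the sources used here. The next widest inside genes were those of Mast4 (904 bp), a serine/threonine kinase, Abl2 (870 bp), an Abl-family tyrosine kinase that acts on actin, and Nck1 (855 bp), an adaptor that links receptor kinases to actin. Then came Dnajb4 (805 bp), an HSP40 co-chaperone, Itpr3 (786 bp), a calcium channel gated by inositol trisphosphate, and Rfx5 (683 bp). Sgms1 (626 bp), Aspg (609 bp), the cytokine-signalling kinase gene Jak2 (608 bp), the clock repressor gene Cry1 (601 bp), Ubald1 (592 bp), Slc3a2 (565 bp), Lzts2 (560 bp) and Csrnp1 (550 bp) completed the 15 widest.

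Several of these wide peaks sat beside an annotated start within their own gene. The Nck1 peak lay 90 bp from one, that of Dnajb4 172 bp, Rfx5 226 bp, Lzts2 362 bp, Csrnp1 759 bp and Ubald1 798 bp. Others had none near among the promoter windows of genes of any type, a set that is not complete. The Abl2 peak lay 57060 bp from the nearest annotated start there, that of Cry1 23586 bp and that of Jak2 18757 bp. The nearest start to the Mast4 peak, that of a lncRNA gene, was 142809 bp away.

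Between genes, the widest after Chd2 were assigned to Gm7030 (746 bp), Pecam1 (670 bp), Ptchd3 (666 bp), Ranbp9 (587 bp), Rnf19a (583 bp), Ckap2l (581 bp), Siah1a (567 bp), Cfap58 (534 bp) and Calm2 (531 bp). Csnk2a2 (515 bp), Trappc3 (503 bp), Cpne5 (500 bp), Cryaa (494 bp) and Ly6g6g (480 bp) followed. The name of the nearest gene said little in some of these. The Ptchd3 peak lay 52788 bp outside that gene and 319 bp from the start of the lncRNA gene Gm12589. The Calm2 peak lay 84207 bp outside the calmodulin gene and 46 bp from the start of the lncRNA gene Gm30984. The Csnk2a2 peak, 8126 bp outside the gene of a casein kinase 2 subunit, lay 580 bp from the start of the lncRNA gene 4933406B17Rik. The nearest gene of another was Cryaa, a lens crystallin, 72049 bp away. The peak of Cpne5 lay 1489 bp outside it. The nearest start site among the promoter windows was that of Cdkn1a, the cell cycle inhibitor p21, at 60764 bp. The set of windows is not complete, so a nearer start may be missing from it.

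The isolated peaks farthest from any protein-coding gene lay in gene deserts. The most distant was 590332 bp from Klf4, a factor of epidermal barrier formation (chr4:56122807-56123157, 351 bp). Its next distal peak, 99107 bp further on, was assigned to Actl7b (268 bp wide, 517474 bp outside) in the same interval between Klf4 and Actl7b. Another isolated peak of that interval, 228 bp wide, lay 256522 bp from Actl7b. The others were 533019 bp from N6amt1, 526961 bp from Usp25 and 412694 bp from Dmrt2.

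Grouped by function, 86 of the 972 genes in 28 lists were assigned an isolated peak, and 469 of the 555 genes were in no list. Among transcription factors, 4 of 20 AP-1 genes had one (20.0%, interval 8.07 to 41.6, beside 2.54% of all genes). These were Mafg (248 bp, inside), Fos (224 bp, 16973 bp outside), Fosl2 (204 bp, inside) and Atf3 (199 bp, 1940 bp outside). Fos and Fosl2 also had gene-end peaks, and 7 genes of the list had one in all. All 4 isolated peaks were narrower than the median of the control list (273 bp), so with wider peaks only the AP-1 count was 0.

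Of 52 immediate-early and MAPK feedback genes, 8 had an isolated peak (15.4%, interval 8.01 to 27.5), 7 of them without any other. The widest were at Csrnp1 (550 bp, inside), Klf4, Zfp36l2, which binds AU-rich mRNA (257 bp, 37359 bp outside), Spred2, an inhibitor of Ras-ERK signalling (235 bp, inside), and Dusp6, an ERK phosphatase (225 bp, 128670 bp outside). Of 48 NF-kB and inflammatory feedback genes, 9 had one (18.8%, interval 10.2 to 31.9). The widest were at the subunit gene Nfkb1 (464 bp, inside, and 232 bp, 40951 bp outside) and Irf2bp2 (417 bp, 71213 bp outside). The caspase-8 regulator gene Cflar (308 bp), the receptor gene Il6ra (304 bp) and Nfkbiz (298 bp), an atypical IkB protein, followed, all with the peak inside.

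Of 39 epidermal transcription factors, 4 had one (10.3%, interval 4.06 to 23.6). These were Grhl3 (439 bp, 24358 bp outside), a grainyhead factor of barrier formation, Klf4, Gata3 and the nuclear receptor gene Rora (243 and 209 bp, both inside). Only Rora, of these, had no other control peak. Of 24 clock genes, 3 had one: the repressor genes Cry1 (601 bp) and Cry2 (248 bp) and again Rora, all inside and with no other peak. Of 50 retinoid, vitamin D and nuclear receptor genes, 3 had one (6.0%, interval 2.06 to 16.2). These were the retinoic acid carrier gene Crabp2 (371 bp, 4795 bp outside), Rbp7 (239 bp) and Rora.

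Among receptors and signalling genes, 6 of 34 EGFR ligand and receptor tyrosine kinase genes had an isolated peak (17.6%, interval 8.35 to 33.5). The ephrin gene Efna5 had 1 of 328 bp, Igf1r 1 of 297 bp, the ephrin receptor gene Epha4 peaks of 241 and 203 bp outside the gene, Epha2 1 of 211 bp and Met 1 of 200 bp, 45375 bp outside. Of 50 Wnt genes, 4 had one (8.0%). Those of the coactivator gene Bcl9l, the corepressor gene Tle4 and the receptor gene Fzd10 lay 1782, 22763 and 20701 bp outside. That of Rnf43, a ligase that removes Frizzled from the surface, lay inside. Of 35 Notch genes, 2 had one (5.71%, interval 1.58 to 18.6), Dtx2 (385 bp) and the coactivator gene Maml1 (261 bp). Of 44 TGF-beta and BMP genes, 1 had one (2.27%, interval 0.402 to 11.8), the receptor gene Tgfbr2 (212 bp, 138234 bp outside). Both intervals hold the share over all genes (2.54%). Of 29 Hippo genes, 0 had one, which allows a share of up to 10.3%.

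Among genes of the keratinocyte's structure, 4 of 26 basal genes had an isolated peak (15.4%, interval 6.15 to 33.5). These were the hemidesmosome collagen gene Col17a1 (461 bp, 8232 bp outside), Sdc1 (294 bp), Cdh3 (267 bp, 14791 bp outside) and Cd44 (215 bp). Of 29 desmosome and adherens junction genes, 5 had one (17.2%, interval 7.60 to 34.5): the plakophilin genes Pkp3 (289 bp) and Pkp1 (237 bp), Cdh1 (284 bp), Cdh3 and the p120 catenin gene Ctnnd1 (231 bp). Cdh1 and Cdh3, the E- and P-cadherin genes, are neighbours, and Cdh1 also had 12 clustered peaks. Of 26 tight and gap junction genes, 0 had one, which allows up to 11.5%.

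Of 49 cornified envelope genes, 5 had an isolated peak (10.2%, interval 4.44 to 21.8), 4 of them with no other peak. These were Sprr2a2 (438 bp, 4452 bp outside), Dmkn (322 bp, inside) and Sprr1a (212 bp, 2714 bp outside). The others were the keratin genes Krt10 (268 bp, inside, and 199 bp, 8523 bp outside) and Krt77 (255 bp, 5939 bp outside). Sprr2a2 is one of several near-identical copies, so its peak is uncertain in the same way as that of Skint1. Of 48 barrier lipid genes, 5 had one (10.4%, interval 4.53 to 22.2). Besides Sgms1, these were the fatty acid activation gene Acsl1 (265 bp, 23984 bp outside, and 199 bp, inside) and the ceramidase gene Asah2 (259 bp). The others were the fatty acid elongase gene Elovl6 (212 bp) and Abhd5 (199 bp), the co-activator of triglyceride lipase. Of 43 hair follicle and sebaceous genes, 1 had one (2.33%, interval 0.412 to 12.1), which is near the share over all genes (2.54%). It was Krt72, an inner root sheath keratin (456 bp, 5876 bp outside).

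Of 70 genes of the actin cytoskeleton and its small GTPases, 11 had an isolated peak (15.7%, interval 9.01 to 26.0). This was the most of any list by number, in the list with the most genes. The widest were at Wasf2, a WAVE protein that activates Arp2/3 (436 bp), and the small GTPase genes Rhof (417 bp) and Rhov (257 bp, 5265 bp outside). Lpp (300 bp, 79189 bp outside) and the crosslinker gene Actn4 (241 bp) were the others of the 5 widest. Of 61 chromatin regulators, 6 had one (9.84%, interval 4.59 to 19.8). The widest were at Chd2, the BAF subunit gene Arid1b (453 and 226 bp, both outside) and the deacetylase gene Hdac5 (414 bp). The H3K36 demethylase gene Kdm2a (213 bp) and the 5-methylcytosine dioxygenase gene Tet3 (208 bp) followed. Of 19 Skint and Clec2 genes, 3 had one (15.8%): Skint1, Clec2d (482 bp) and Clec2i (267 bp, 4124 bp outside).

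Cell cycle and stress genes lay near the share over all genes. Of 37 cell cycle genes, 1 had an isolated peak (2.70%), Cdkn1b, which encodes the inhibitor p27 (341 bp, inside). Of 40 stress genes, 1 had one (2.50%), the metallothionein gene Mt1 (199 bp, 3571 bp outside). Of 30 housekeeping genes, 2 had one (6.67%), Ywhaz and the aldolase gene Aldoa (228 bp). The other-cell markers gave 0 of 29 immune, 0 of 26 fibroblast, 0 of 13 melanocyte and 0 of 12 Merkel cell genes, which allow shares of up to 10.3%, 11.5%, 23.1% and 25%, and 2 of 22 endothelial, mural and muscle genes (9.09%). Those were Pecam1, an endothelial adhesion gene (670 bp, 4736 bp outside), and Vwf, the von Willebrand factor gene (394 bp, inside). The lists share genes, their members lie in genes of unequal length, and no list was tested against another.

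**Figure D4:**
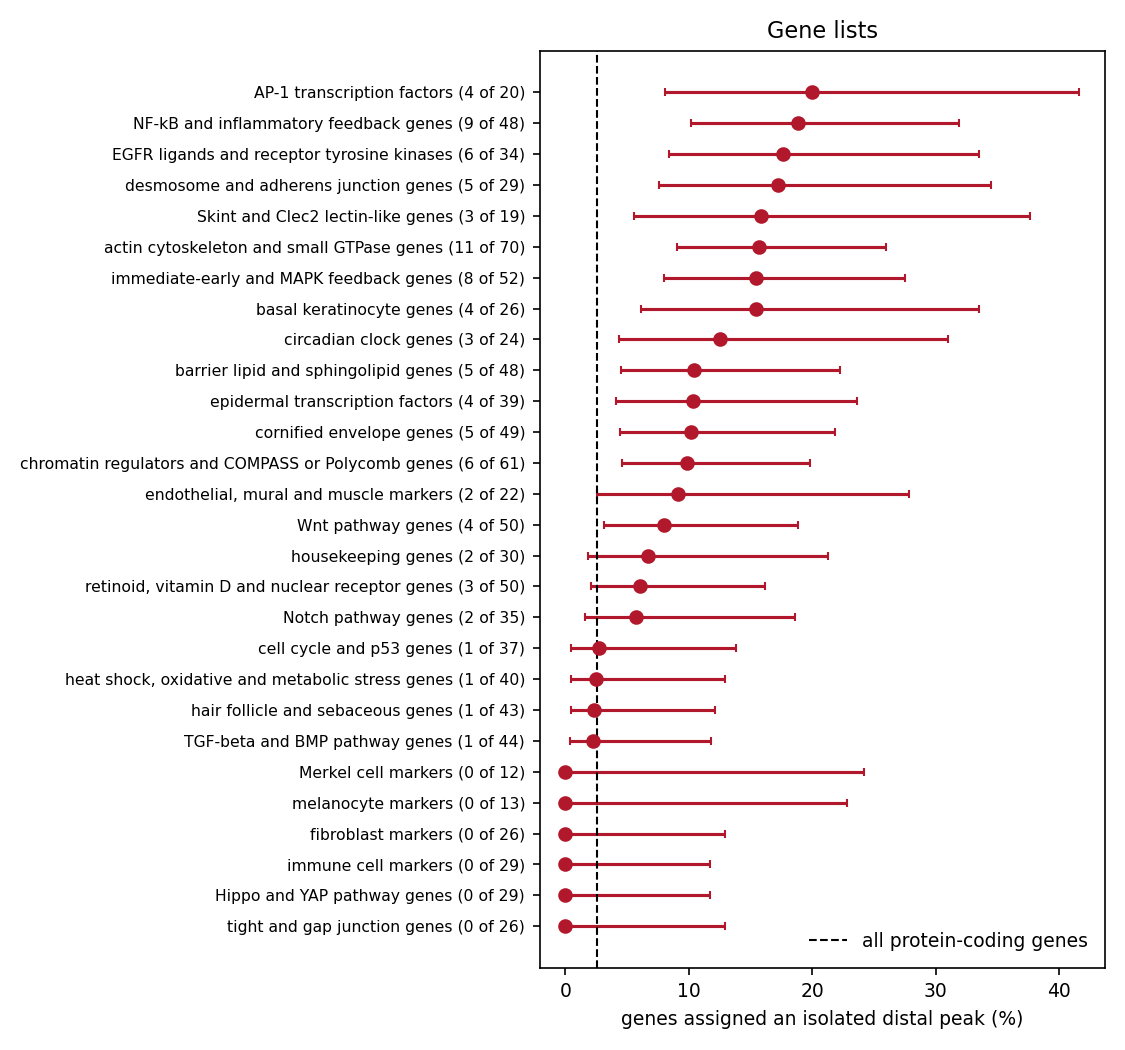
Share of the annotated genes of each list that were assigned an isolated distal H3K27ac peak (%, x axis), with the counts beside the list names; bars are 95% Wilson intervals for counting error and the dashed line is the share over all protein-coding genes (2.54%). AP-1, NF-kB and receptor tyrosine kinase genes stand highest (20.0%, 18.8% and 17.6%), where the AP-1 count is 0 with wider peaks only, and 6 lists hold 0. In those highest lists the widest isolated peak per gene had a median of 214, 298 and 226 bp, beside 267 bp over all 555 genes.

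Few isolated peaks coincided with a peak of another list. A control UTX peak overlapped 3 of the 606 (0.495%, interval 0.169 to 1.45), which was 0.548% of the 547 control UTX peaks, beside 0.187% of all 2139 placed control H3K27ac peaks (4 peaks). Among clustered peaks the count was 1 of 760 and among gene-end peaks 0 of 773. The Utx-deleted UTX list overlapped 2 isolated peaks (0.330%, and 0.939% of its 213 peaks) and the Utx-deleted H3K27ac list 1 (0.165%, and 2.08% of its 48 peaks), against 0 clustered and 0 gene-end peaks in both lists, which allow up to 0.395% and 0.388%.

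Just 3 peaks made up these overlaps. That of Arid1b (chr17:4626182-4626634, 453 bp), 367663 bp outside the gene, was in all 4 lists, within a control UTX peak of 720 bp and a Utx-deleted UTX peak of 660 bp, and over a Utx-deleted H3K27ac peak of 299 bp. That of N6amt1 (chr16:86820868-86821166, 299 bp), a methyltransferase gene 533019 bp away, shared 292 bp with a control UTX peak of 403 bp. That of Dpp9 (chr17:56199997-56200210, 214 bp), inside this dipeptidyl peptidase gene, lay within UTX peaks of both genotypes (385 and 360 bp). The Arid1b and Dpp9 positions were called with the UTX antibody in Utx-deleted epidermis too.

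By chromosome, isolated peaks did not follow the other classes everywhere. Chromosome 16 held 38 (5.60 per 100 protein-coding genes), beside 2.21 clustered and 2.36 gene-end peaks per 100 genes. Chromosome 12 held 30 (4.42, beside 4.27 and 2.06) and chromosome 19 held 36 (5.11, beside 8.09 and 6.38). Isolated peaks also exceeded both other classes on chromosomes 14 (2.12, beside 1.06 and 1.18) and 1 (2.99, beside 2.24 and 2.66). Chromosome 11, dense in clustered and gene-end peaks (6.09 and 7.09 per 100 genes), held 49 isolated peaks (3.05). The lowest autosomal values were on chromosomes 5 (21 peaks, 1.65) and 7 (35 peaks, 1.72).

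Chromosome X held 0 isolated peaks of 606, which allows a share of up to 0.495%, although it carries 966 protein-coding genes (4.41% of all), for which 26.7 peaks would match the share of genes. It also held 0 clustered peaks and 5 gene-end peaks. Chromosome Y, which female mice lack, held 0 of each class.

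**Figure D5:**
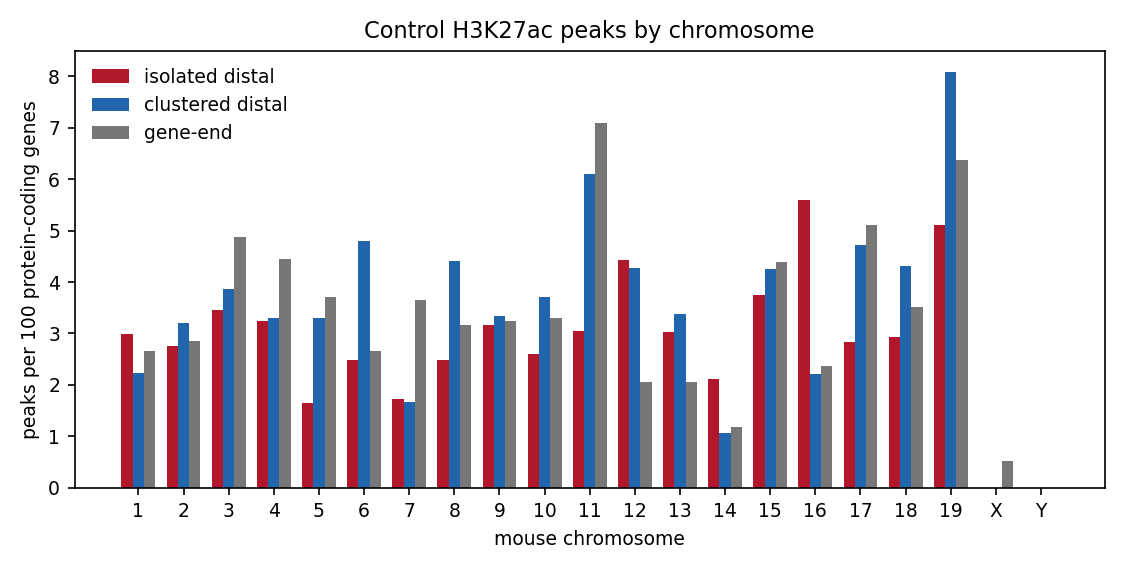
Control H3K27ac peaks per 100 protein-coding genes (y axis) on each mouse chromosome (x axis) for isolated distal, clustered distal and gene-end peaks. Isolated peaks exceed both other classes on chromosomes 16 (5.60 against 2.21 and 2.36), 14 (2.12 against 1.06 and 1.18), 12 and 1. Chromosome X holds none of the distal peaks.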

How the data were processed

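The deposited data were 4 peak lists, 1 per antibody and genotype, each giving a chromosome, a start and an end. The authors called the peaks with MACS2 on merged samples, per the file headers; the submitters' processing notes also name FastQC, Bowtie2, deepTools and bedtools, without versions. The notes name both GRCm38 and GRCm39. On GRCm38, 36.1% of control H3K27ac peaks lay within 1 kb of a protein-coding gene end, against 9.68% and 10.1% after moving them by 10 kb (10000 bp) down or up, so GRCm38 was used. Deposited coordinates count from 0 and were made 1-based.

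Genes were the 21887 placed protein-coding genes of RefSeq on GRCm38.p6, and promoter windows, miRNA hairpins and their strands came from RefSeq tables of the same build. The window table is not complete (32851 windows of 27025 genes, none on chromosome 18). A genome sequence was not used here, so the sequence of a peak is shown only where it reaches into a window. Window coordinates and letters were checked against each other in 1700 overlapping window pairs, of which 1700 matched. Distances were taken from the nearest edge of a peak, and peaks overlapped at 1 bp or more. A peak was assigned to the protein-coding gene it lay in, otherwise to the nearest. The peak on unplaced sequence (1 of 2140) was left out. Input libraries were not analysed here.

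The members and gene lists were chosen with earlier results of these data known. The genes named were those of the 15 widest peaks inside and between genes, every gene with 3 peaks, up to 5 members of each list by width, the 5 peaks farthest from genes, peaks overlapping another list, and 3 peaks on either side of each threshold. Other genes named beside a start site or a window come from the annotation around those peaks, and genes named for any other reason were chosen after their values were seen. The rule was tested on simulated positions. The work used pandas 2.3.3 and numpy 2.4.6 on Python 3.11.15, with intervals from scipy 1.17.1 and figures from matplotlib 3.10.9.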

Additional observations from a re-analysis of the deposited data

How the results depend on the processing

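Each list merges its libraries and gives positions only, so no replicate could be left out, no stricter q could be applied and no value has a replicate error. Other isolation distances, other distances from gene ends, any peak as a neighbour, genes of every type and peak midpoints (chosen after seeing the data) left between 436 and 724 peaks. With only the peaks wider than the median of the list, the counts were 365 peaks and 342 genes, the share inside genes was 60.3% and the overlap with Utx-deleted UTX peaks was 1. The share inside genes (64.2%) was 59.4% at 2 kb from gene ends, 57.1% at 5 kb, 73.8% with genes of every type and 60.0% when peaks within 1 kb of an annotated start site were also left out (chosen after seeing the data). The median distance between genes (16973 bp) was 8022.5 bp with genes of every type. The share of assigned genes with a gene-end peak (16.6%) was 12.6% at 500 bp, 21.2% at 2 kb, 24.0% at 5 kb and 7.36% with any peak as a neighbour; these settings move peaks between the classes by construction. Of 392 list counts under the alternatives, 334 stayed within 1.5 times the reported count and 58 did not. The AP-1 count of 4 was 0 with wider peaks only. Peaks were narrow in some other lists too. The widest isolated peak per gene had a median of 211 bp in Wnt, 226 bp in receptor tyrosine kinase, 230 bp in immediate-early and 235 bp in actin cytoskeleton genes. It was 298 bp in NF-kB genes and 267 bp over all assigned genes. The counts of these lists with wider peaks only are not given here. Unknown depth limits every count: a narrow or weak element that was not called is not shown to be absent.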

Other observations

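Some gene families were represented by several members, chosen after their values were seen. Of 375 solute carrier genes, 14 were assigned an isolated distal peak (3.73%), of 77 protein phosphatase genes with names in Ppp 6 (7.79%), of 25 myosin genes 4 (16.0%) and of 17 Klf genes 3 (17.6%), Klf3, Klf4 and Klf12. The Klf3 peak lay inside its gene, that of Klf4 590332 bp outside and those of Klf12 233462 and 258372 bp outside. Of 1110 olfactory receptor genes 0 were assigned one, which allows a share of up to 0.270%, and of 355 vomeronasal receptor genes 0, which allows up to 0.845%. Of 397 Zfp genes, 5 were (1.26%). The share over all protein-coding genes was 2.54%.

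No isolated distal peak of 591 overlapped a miRNA hairpin of the 1005 compared, and 2 lay within 1 kb of one. The peak inside Erbb3 lay 488 bp from Mir6917 and that of Hadhb 505 bp from Mir1960.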
